A study of Mus musculus with 6 samples.

Results

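The 10 fatty acid oxidation enzymes of this report carry long-chain fatty acids into mitochondria and shorten them there. They are Cpt1a, Cpt2, Slc25a20, Acadm, Acadl, Acadvl, Hadha, Hadhb, Acaa2 and Decr1, chosen by name, and every array probe whose RefSeq transcript belongs to one of them was taken. They account for 10 of the 16535 gene symbols with a probe, and for 12 probes. Whole blood was compared between male mice of C57BL/6J, an inbred strain, on a normal (control) diet and males of the same strain given 50% food restriction (FR) for 2 weeks. All mice were labelled as 9 weeks old, and there were 8 animals per diet. Blood was drawn under anaesthesia from the right ventricle, and animals of a diet were pooled. Pool 1 combined all 8 mice (numbers 1 to 8), pool 2 took numbers 1 to 4, and numbers 5 to 8 went into pool 3. FR and control RNA of a pool were hybridised together on 2 two-colour Agilent arrays with the dyes exchanged, which gave 6 arrays. Pools 2 and 3 share no animal and were the replicates of every test (n = 2), and pool 1 is a repeat of the same animals on another slide. Pooling leaves the spread between single mice unmeasured.

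Fatty acids enter the mitochondrial matrix as carnitine esters. CPT1 at the outer membrane makes the ester, the carrier SLC25A20 moves it inwards and CPT2 restores the acyl-CoA. Acyl-CoA dehydrogenases then begin each turn of beta-oxidation, the trifunctional protein of HADHA and HADHB completes it for long chains, and thiolases release acetyl-CoA. In liver, heart and muscle these genes are known targets of the fasting-responsive receptor PPAR alpha. In blood the transcripts can come only from cells that hold RNA, which are leukocytes, platelets and reticulocytes.

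The sequence upstream of the start site is shown for the member with the lowest ratio (Hadhb), for 2 others that fell (Cpt1a and Acadm) and for a bright member that did not pass the test (Acadvl). The sequences are from RefSeq (GRCm38.p6) and run 5′ to 3′ on the gene's own strand over the 250 bases before the start. They lie at chr5:30155003-30155252 (+) for Hadhb, chr19:3323051-3323300 (+) for Cpt1a, chr3:153944644-153944893 (-) for Acadm and chr11:70015429-70015678 (-) for Acadvl. Capitals mark, on either strand, the nuclear receptor hexamer AGGTCA, the GC box GGGCGG, the NRF1 core GCGCATGC and the CCAAT box.
Hadhb: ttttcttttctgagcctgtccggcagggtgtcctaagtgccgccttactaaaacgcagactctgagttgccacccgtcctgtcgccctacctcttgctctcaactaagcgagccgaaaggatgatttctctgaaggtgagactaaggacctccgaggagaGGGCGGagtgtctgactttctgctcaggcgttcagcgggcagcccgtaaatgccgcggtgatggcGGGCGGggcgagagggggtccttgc
Cpt1a: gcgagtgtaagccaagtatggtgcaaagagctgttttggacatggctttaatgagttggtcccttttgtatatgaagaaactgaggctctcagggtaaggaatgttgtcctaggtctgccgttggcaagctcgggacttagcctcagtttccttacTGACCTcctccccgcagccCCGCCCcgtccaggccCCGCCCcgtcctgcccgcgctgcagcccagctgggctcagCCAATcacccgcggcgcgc
Acadm: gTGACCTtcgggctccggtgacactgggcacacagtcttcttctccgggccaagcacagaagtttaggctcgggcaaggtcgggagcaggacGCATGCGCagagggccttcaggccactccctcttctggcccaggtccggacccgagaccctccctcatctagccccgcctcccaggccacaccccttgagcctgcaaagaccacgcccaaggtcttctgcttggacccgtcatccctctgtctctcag
Acadvl: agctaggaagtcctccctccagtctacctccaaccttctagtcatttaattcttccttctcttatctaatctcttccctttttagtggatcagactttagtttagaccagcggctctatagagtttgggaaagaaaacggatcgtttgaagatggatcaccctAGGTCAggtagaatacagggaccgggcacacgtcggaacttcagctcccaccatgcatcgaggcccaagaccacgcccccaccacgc

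Upstream sequence was found for 8 of the 10 members. The hexamer AGGTCA, to which PPARs and other nuclear receptors bind, was present in 3 of the 8, in Cpt1a (94 bases before the start), Acadm (249 bases) and Acadvl (87 bases), against 14.0% of 32851 mouse promoter windows of the same length. A pair of hexamers with a spacer of 1 base, the full PPAR element, was found in none of the 8 with up to 2 mismatches, and in 3.24% of all windows. The GC box was present in 6 of the 8, against 32.7% of all windows, and lay in both Hadha and Hadhb. The Hadha box is in the stretch that both windows share and is the same site as the upstream box of Hadhb, so 1 site counts for both genes. G and C made up between 49.6% (Acadvl) and 68.0% (Acadl) of the 8 windows, against a median of 52.4% over all windows. The part of this base composition in the share of GC boxes was not tested. The hexamer thus occurred in genes that fell and in a gene that did not pass the test. These are letter matches in a short window, and a missing match says only that the letters are not there.

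Hadha and Hadhb lie head to head on chromosome 5. Their start sites are at 30154980 and 30155253, with 272 bases between them, so 228 bases of the Hadhb sequence shown are also, on the other strand, in the window upstream of Hadha.

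Of the 10 genes, 7 had a probe bright enough to be tested, meaning well above local background in FR or in control on all 4 arrays of pools 2 and 3. Of these 7, 4 fell under FR (Hadhb, Acaa2, Cpt1a and Acadm), 0 rose and 3 did not pass (Cpt2, Acadvl and Hadha), by limma with Benjamini-Hochberg adjustment over all features. No member was higher at an unadjusted p under 0.05 either. Among all 7907 named genes tested, 28.1% fell and 3.24% rose by the same rule. Hadhb, Cpt1a and Acadm met the brightness rule through control alone, the diet in which they are higher, so the count of 4 is a description of the genes that could be tested. With both diets required above background on all 4 arrays, 4 members were tested and 1 fell (Acaa2), against 21.9% of 4805 named genes. With every probe kept, 7 of the 12 member probes met the brightness rule, and they are the probes that stood for the 7 genes. Of these, 4 fell, against 25.5% of all probes lower and 4.00% higher. The probe count thus repeats the gene count and is no second check. The fit on 2 pools took 1 variance for all genes of a brightness. In a second setting, called gene-wise variance here, the prior degrees of freedom came from a fit of all 3 pools and genes could differ in variance. There 2 members fell (Hadhb and Acaa2), against 17.6% of named genes. Fewer cells of a type and less RNA per cell cannot be told apart in whole blood.

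The median log2 ratio (FR over control) of the 7 tested members was -0.40, and it was -0.43 in pool 1, -0.40 in pool 2 and -0.37 in pool 3. The median over all named genes tested was -0.04. The members' median also rests on the genes that passed through control. It was -0.18 over all 10 members with no filter on brightness and -0.039 over the 4 members above background in both diets. The median over all named genes in these settings was 0.004 and 0.038. All 7 members had a mean below 0, though only 4 were below 0 in both pools, and 54.3% of named genes had a mean below 0. The 7 tested members lay apart in 4 genes at -0.40 or below and 3 from -0.053 to -0.022. The gap holds for the tested genes alone. With no filter on brightness, Acadl (-0.32) lay inside it, and Slc25a20 (-0.01) and Decr1 (0.11) lay above it.

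**Figure D1:**
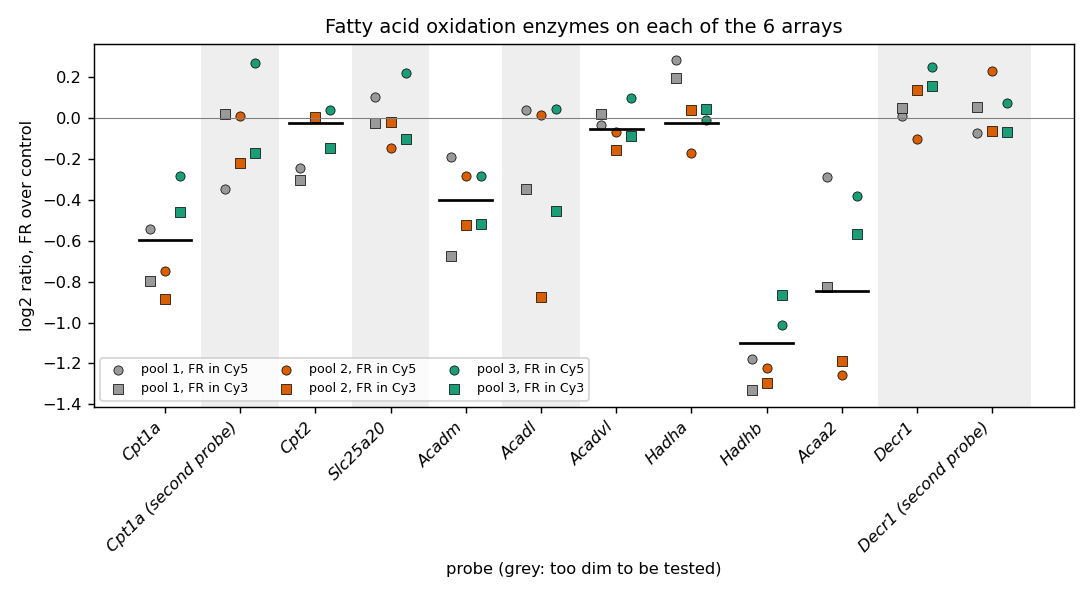
Log2 ratio of FR over control (vertical axis) for each member probe (horizontal axis) on each of the 6 arrays, marked by pool and by the dye of the FR sample. All 6 points of Hadhb, Acaa2, Acadm and the tested Cpt1a probe lie below 0, while Cpt2, Acadvl, Hadha and the second Cpt1a probe scatter around it. The share of all named genes with 6 arrays below 0 was not counted. Probes in grey were too dim to be tested.

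Carnitine shuttle. Cpt1a encodes the liver-type carnitine palmitoyltransferase of the outer membrane, the step at which entry of fatty acids is controlled. Its normalised signal in control blood was 166, 217 and 135 in pools 1, 2 and 3, and in FR blood 104, 123 and 104. The FR signals all lay below the control signals, with no overlap, though how many of all named genes show this was not counted. The ratio was -0.67, -0.82 and -0.37 in the 3 pools and -0.59 ± 0.31 (SD, n = 2 pools), 1.51-fold lower (limma adjusted p = 0.000216). The call was lost with gene-wise variance (limma adjusted p = 0.0510) and with FR and control compared as unpaired samples (limma adjusted p = 0.192), and on the scanner's processed signals the ratio was -1.58. FR was well above background on 3 of the 4 arrays. The other probe of Cpt1a gave -0.03 ± 0.11 (SD, n = 2) and was too dim to be tested, being above background in FR on 1 of 4 arrays and in control on 3.

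Cpt2, the inner-membrane enzyme that restores the acyl-CoA, did not share this difference. Its signal was 227, 200 and 178 in control and 188, 201 and 171 in FR, so the diets overlapped. The ratio of -0.02 ± 0.04 (SD, n = 2) did not pass (limma adjusted p = 0.930), and its 95% interval with gene-wise variance ran from -0.37 to 0.32. Slc25a20, the carnitine-acylcarnitine carrier, was above background in FR on 0 and in control on 1 of the 4 arrays. Its ratio of -0.01 ± 0.10 (SD, n = 2) is of a probe too dim to be tested.

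Acyl-CoA dehydrogenases. Acadm, the medium-chain enzyme, had control signals of 130, 141 and 118 and FR signals of 96.6, 107 and 89.6 in pools 1 to 3. The drop was nearly the same size in each pool, at -0.43, -0.40 and -0.40. The mean was -0.40 ± 0.00168 (SD, n = 2), 1.32-fold lower (limma adjusted p = 0.00652). This very small SD hides a spread between arrays, which read -0.28 with FR in Cy5 and -0.52 with FR in Cy3 in both pools. With the Cy5 arrays alone the adjusted p was 0.0653, with gene-wise variance 0.0638 and with unpaired samples 0.179 (limma). On processed signals the ratio was -1.45. FR was above background on 2 of the 4 arrays.

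Acadvl, the very-long-chain enzyme of the inner membrane, was bright on every array and nearly level between the diets. Its control signals were 1357, 661 and 648 and its FR signals 1351, 612 and 650. Pool 1, on its own slide, was the highest in both diets, and the ratio within it was -0.01. The mean ratio was -0.05 ± 0.08 (SD, n = 2; limma adjusted p = 0.831), with a 95% interval from -0.38 to 0.28 with gene-wise variance.

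Acadl, the long-chain enzyme, was above background in FR on 0 and in control on 2 of the 4 arrays and was not tested. Its arrays split by dye. They read 0.04, 0.01 and 0.05 with FR in Cy5 and -0.35, -0.87 and -0.45 with FR in Cy3, in pools 1 to 3. With no filter on dim probes Acadl passed as lower (-0.32, limma adjusted p = 0.00117), a value that comes from the Cy3 arrays.

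Trifunctional protein. Hadhb, the beta subunit that carries the long-chain thiolase, had the lowest ratio of all members. Its signal was 226, 304 and 218 in control and 94.5, 127 and 114 in FR. Every FR signal lay well below every control signal, though pool 1 holds the animals of pools 2 and 3. How many of all named genes show such a separation was not counted. The 6 arrays read -1.18 and -1.33 in pool 1, -1.22 and -1.29 in pool 2 and -1.01 and -0.86 in pool 3, with FR in Cy5 first. The mean was -1.10 ± 0.23 (SD, n = 2), 2.14-fold lower (limma adjusted p = 2.5e-11, and 0.00762 with gene-wise variance). Hadhb fell in all 16 alternatives in which it was tested, with ratios from -2.22 on processed signals to -0.92 without background subtraction. FR was above background on 2 of the 4 arrays.

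Hadha, the alpha subunit with the hydratase and dehydrogenase activities, did not move with its partner. Its signal was 160, 193 and 172 in control and 189, 185 and 174 in FR, and the diets overlapped. The ratio was 0.24, -0.06 and 0.02 in the 3 pools, with a mean of -0.02 ± 0.06 (SD, n = 2; limma adjusted p = 0.938) and a 95% interval from -0.37 to 0.33 with gene-wise variance. The ratio of Hadhb was lower than that of Hadha by a log2 difference of -1.50, -1.20 and -0.96 in pools 1, 2 and 3. These differences were not tested, and each gene rests on 1 probe.

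**Figure D2:**
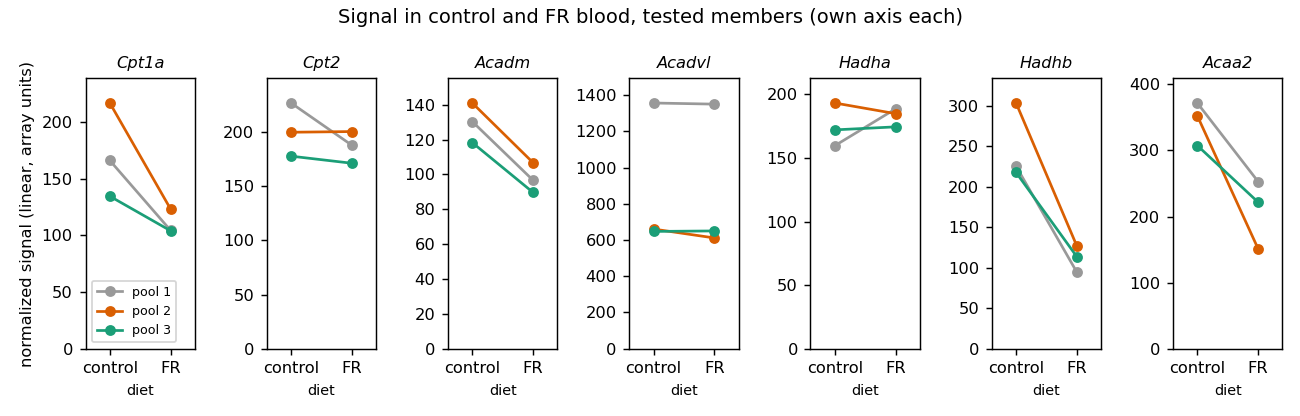
Normalised signal on a linear scale in array units (vertical axis, from 0, its own range for each gene) in control and FR blood (horizontal axis) for the 7 tested members, with a line for each pool. The FR points of Hadhb, Acaa2, Cpt1a and Acadm lie below all their control points, and those of Cpt2, Acadvl and Hadha overlap them. The share of all named genes without overlap was not counted.

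Thiolase and auxiliary enzyme. Acaa2, a mitochondrial thiolase that acts on shorter chains, fell in every pool but by different amounts. Its signal was 372, 352 and 307 in control and 253, 151 and 222 in FR, with no overlap, a trait not counted over all named genes. The ratio was -0.56, -1.22 and -0.47 in pools 1, 2 and 3, so pool 2 stood lowest. The mean was -0.85 ± 0.53 (SD, n = 2), 1.80-fold lower (limma adjusted p = 7.64e-07, and 0.0394 with gene-wise variance). With pool 2 left out and pools 1 and 3 used, it was -0.51, with unpaired samples the adjusted p was 0.0779 (limma), and on processed signals the ratio was -1.29. FR was above background on 4 of 4 arrays.

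Decr1, the dienoyl-CoA reductase needed for unsaturated chains, had 2 probes, and neither was above background in either diet on any of the 6 arrays. They read 0.11 ± 0.13 and 0.04 ± 0.06 (SD, n = 2).

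The probes of Cpt1a and Acaa2 are each printed as 10 spots per array, which gives the error within an array. The SD over the spots was between 0.104 and 0.151 for Cpt1a and between 0.0491 and 0.343 for Acaa2. The widest was the pool 1 array with FR in Cy3. The distance of pool 2 from pool 3 was -0.44 for Cpt1a and -0.75 for Acaa2, while the 2 arrays of pool 1 alone read -0.29 and -0.83 for Acaa2 and -0.54 and -0.80 for Cpt1a. The spots give the error within an array and not that between arrays or pools. Pool 2 was lower than pool 3 in 6 of the 7 tested members, and in 57.8% of named genes.

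**Figure D3:**
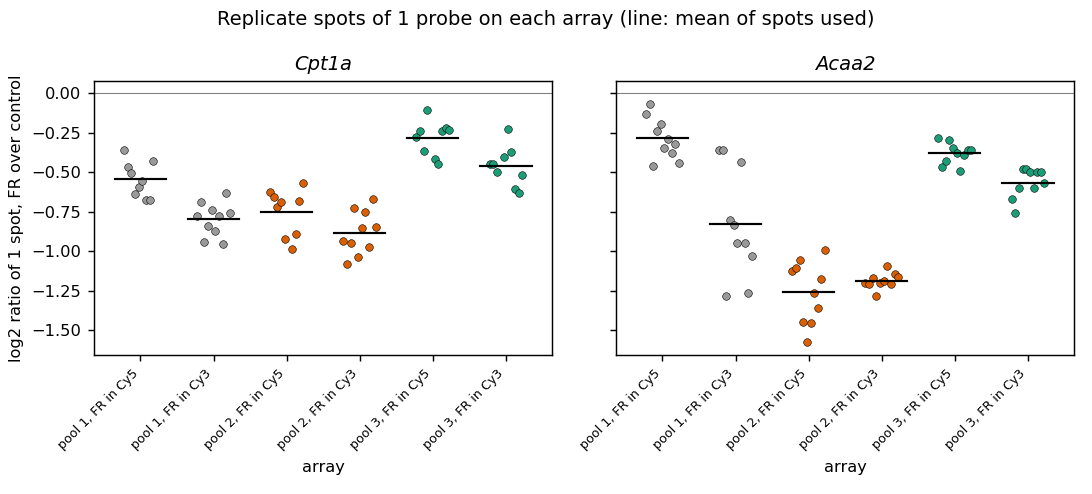
Log2 ratio of FR over control (vertical axis) of each replicate spot of the Cpt1a and Acaa2 probes on each array (horizontal axis), with a line at the mean of the spots used. Spots of an array lie close together except for Acaa2 on the pool 1 array with FR in Cy3, and arrays of pool 3 lie above those of pool 2 for both genes.

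Other steps of fat use. Of 12 tested genes among 28 other mitochondrial beta-oxidation genes on the array, 6 fell and 0 rose (0 higher at an unadjusted p under 0.05), with a median of -0.34. Among all named genes tested, 28.1% fell and 3.24% rose. For 2 of the 6, no array of pools 2 and 3 had FR above background. The 3 that also fell with gene-wise variance, named after their values were seen, were Etfb (-0.75 ± 0.19), which takes electrons from the dehydrogenases, the thioesterase gene Acot13 (-0.60 ± 0.01) and the isomerase gene Eci1 (-0.55 ± 0.02; SD, n = 2). The 2 brightest genes that did not pass were Crat, carnitine acetyltransferase (0.26 ± 0.53), and Cpt1b, the muscle-type partner of Cpt1a (0.18 ± 0.10).

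Of 17 tested genes of fatty acid uptake, activation and release, 4 fell and 0 rose (1 higher at an unadjusted p under 0.05), with a median of -0.18. The shares over all named genes, for this list and the next, were 28.1% lower and 3.24% higher. Dbi, the acyl-CoA binding protein, was at -1.08 ± 0.38 (SD, n = 2), whereas the transporter genes Slc27a1 (-0.06 ± 0.09) and Cd36 (-0.19 ± 0.19) did not pass. Of 16 peroxisomal beta-oxidation genes, 7 fell and 0 rose (0 at an unadjusted p under 0.05), with a median of -0.17. Acaa1a, the peroxisomal thiolase, was at -1.26 ± 0.31 (SD, n = 2), and Cat, catalase (-0.12 ± 0.24), and Pex19 (0.15 ± 0.06), a peroxisome assembly gene, did not pass.

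Of 17 tested PPAR factors, partners and targets, 5 fell and 0 rose (0 at an unadjusted p under 0.05), with a median of -0.02. The share of all named genes that fell was 28.1%. The 2 brightest genes that did not pass were Ucp2 (-0.25 ± 0.57) and the corepressor gene Nrip1 (0.10 ± 0.20). Ppara and Ucp3 were above background in neither diet on any of the 4 arrays. Of 19 tested genes of the TCA cycle and pyruvate dehydrogenase list, 12 fell and 0 rose (0 at an unadjusted p under 0.05), with a median of -0.45. They included Cs, citrate synthase (-1.39 ± 0.29), and Mpc2, a subunit of the pyruvate carrier (-1.09 ± 0.09; SD, n = 2), while Pcx, pyruvate carboxylase (-0.07 ± 0.00), and Sdhc, a subunit of succinate dehydrogenase (0.07 ± 0.04), did not pass. With gene-wise variance 3, 2, 2, 2 and 5 genes fell in these lists, in the order given, and none rose. In that setting 17.6% of all named genes fell. Of the genes that fell on the common variance, 3 peroxisomal and 2 PPAR genes had FR above background on no array of pools 2 and 3.

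**Figure D4:**
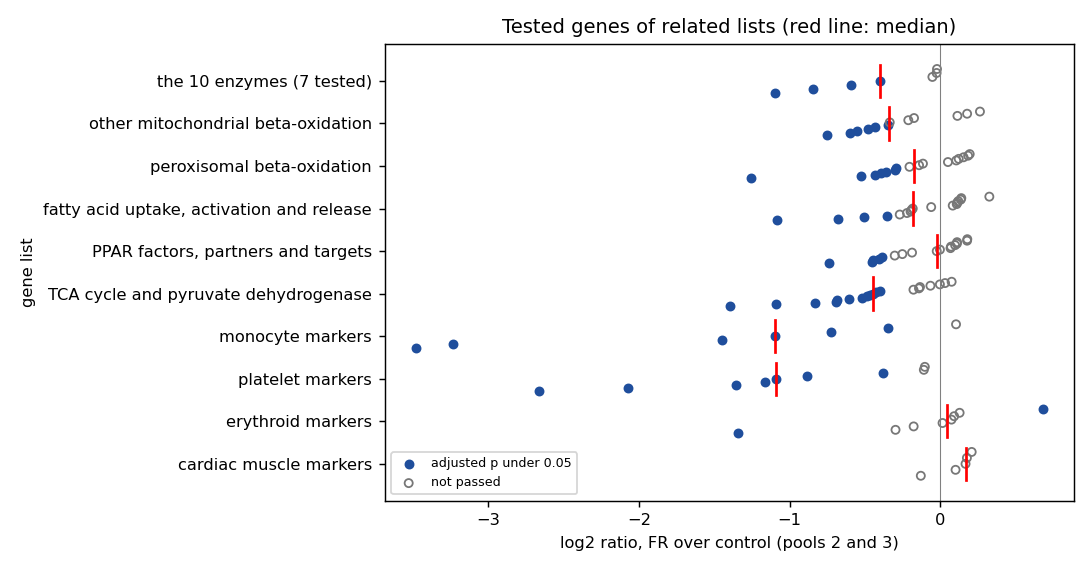
Log2 ratio of FR over control, mean of pools 2 and 3 (horizontal axis), of every tested gene (points) of the members and of other lists (vertical axis), filled where the limma adjusted p was under 0.05, with the median as a red line. Medians were -0.40 for the 7 tested members of the 10 enzymes, -0.45 for the TCA cycle list, -1.10 for monocyte markers and 0.17 for cardiac muscle markers.

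Blood cell markers differed between the diets alongside the members. Summed normalised signals of the tested markers in pools 2 and 3 were 4228 and 5420 in FR against 46140 and 32365 in control for monocytes, where 6 of 7 genes fell. For B cells they were 1911 and 1925 in FR against 14315 and 9680 in control, with 6 of 8 lower, and for platelets 38437 and 38530 against 89599 and 95065, with 7 of 9 lower. Of T cell markers 3 of 7 fell (2961 and 2899 in FR, 4350 and 4059 in control), of NK markers 4 of 6 (655 and 632 against 1562 and 1227) and of neutrophil markers 3 of 6 (9619 and 10433 against 21710 and 11334). Each of these 6 sums was lower in FR than in control in both pools. With gene-wise variance 5 monocyte, 6 B cell, 6 platelet, 3 T cell and 4 NK markers fell, and 0 of the neutrophil markers did (3 lower at an unadjusted p under 0.05 on the common variance). Among all named genes, 28.1% fell on the common variance and 17.6% with gene-wise variance. Of the monocyte markers that fell, 2 (Ccr2 and Fcgr1) had FR above background on 0 of the 4 arrays. Other markers that fell also met the brightness rule through control alone. FR was above background on 1 of the 4 arrays for Gzma and Klrd1. It was above on 2 for Ms4a1, Blnk, Cd22, Lck and Ccl5, and on 3 for Cd3d, Csf1r and Csf3r. The 7 platelet markers that fell had FR above background on 4 of 4 arrays. Eomes, of the NK list, and Elane, of the neutrophil list, were above background on no array. The part of these cell types in the members' differences was not tested.

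Erythroid markers held 1 lower and 1 higher gene of 8, and their sums, 387874 and 431516 in FR and 438241 and 376482 in control, overlapped. Cardiac muscle markers, of interest because the blood was drawn from a heart ventricle and these enzymes are abundant there, had 0 of 5 genes lower or higher (0 at an unadjusted p under 0.05), with sums of 2136 and 2434 in FR and 1942 and 2294 in control. Hepatocyte markers had 0 of 4 lower or higher (0 at an unadjusted p under 0.05), with sums of 3477 and 3942 against 3238 and 4214, and Cyp2e1 and Ttr above background on no array. Adipocyte markers had 0 of 6 lower and 1 higher, Lep (0.35 ± 0.12; SD, n = 2), which was above background in control on 3 of 4 arrays and did not pass with gene-wise variance (limma adjusted p = 0.111). Their sums were 746 and 873 against 671 and 812, and Adipoq and Cfd were above background on no array. Endothelial markers had 2 of 6 lower, Vwf (-0.93 ± 0.15) and Esam (-0.52 ± 0.09; SD, n = 2), and with gene-wise variance only Vwf. Pecam1 (-0.17), Kdr (0.12), Cdh5 (0.15) and Cldn5 (0.24) did not pass. The sums were 4132 and 3783 against 6600 and 6683, with Tek above background on no array. Vwf was the brightest of the 6 (mean log2 signal 11.7) and weighs most in these sums.

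The 5 named genes whose 6 array ratios were closest to those of Hadhb, by Euclidean distance, were Hspd1 (0.182), Prkcd (0.184), Susd3 (0.188), Mif (0.204) and Hexa (0.210). Their mean ratios lay between -1.14 ± 0.29 for Susd3 and -1.04 ± 0.25 for Hexa (SD, n = 2). Hspd1 encodes the mitochondrial chaperonin, Prkcd a protein kinase C, Mif a cytokine and Hexa a lysosomal hexosaminidase. Some genes will always lie close among so many, and the distance describes these arrays alone.

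**Figure D5:**
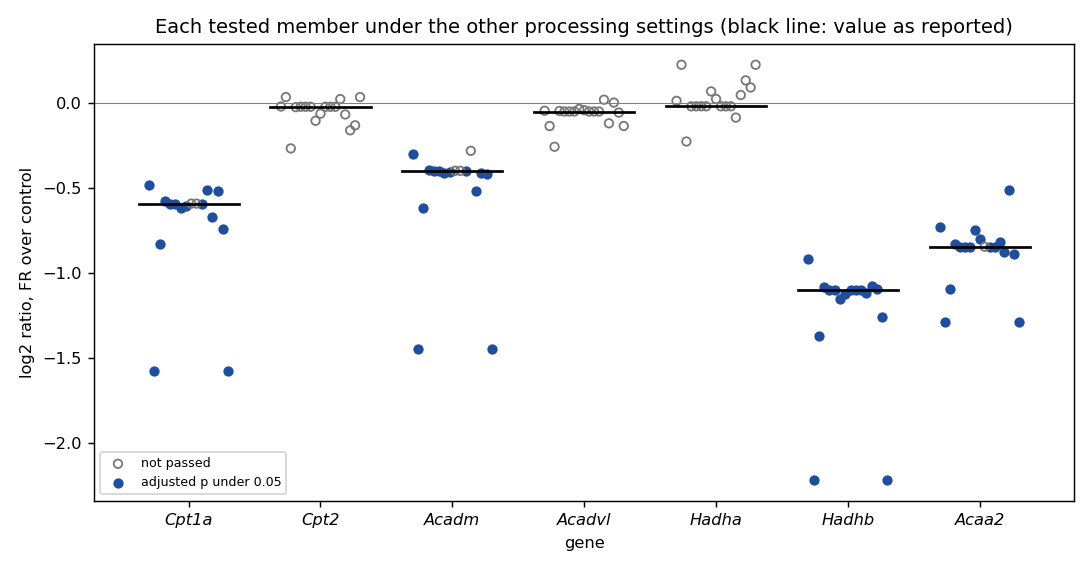
Log2 ratio of FR over control (vertical axis) of each tested member (horizontal axis) under the alternative processing settings, filled where the limma adjusted p was under 0.05, with a black line at the value as reported. Hadhb stayed past the threshold in its 16 settings, and Cpt2, Acadvl and Hadha passed in none of 17.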

How the data were processed

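The samples were 6 two-colour Agilent arrays of whole mouse blood RNA, each with FR and control RNA of 1 pool. The deposited files give a red and a green intensity for each spot. The submitters' processing notes name Agilent Feature Extraction 11.0.1.1 as the software. A further table deposited by the authors is in log10 units. It equalled log10 of processed red over processed green signal, not turned for the swapped arrays and not centred. Its column medians, FR in Cy5 then in Cy3, were -0.00938 and -0.0277 (pool 1), 0.0441 and 0.00763 (pool 2) and 0.0520 and -0.0221 (pool 3). Directions came from the dyes in the labels.

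Median signals were corrected by normexp (offset 50), which limits ratios of dim spots, and normalized by loess within arrays. Control spots and outlier spots were left out, spots of a probe and the 2 arrays of a pool averaged, and ratios turned to FR over control. Levels are single-channel signals, normalized by loess and then Aquantile. The median over all features was 0.01 with loess and -0.19 with median centring in its place, with a shift that differed between genes, so changes are relative. Probes were named by RefSeq accession (GRCm38.p6), 23374 of 41174, and 13259 were tested. The brightest probe stood for a gene, which left 11650 features, 7907 of them named. The test was limma 3.58.1 under R 4.3.3, two-sided, with a trend in the variance and Benjamini-Hochberg adjustment over all features (adjusted p under 0.05), on pools 2 and 3. Pool 1 was left out because its animals are those of the other pools. The fit on 2 pools used a common variance, and the gene-wise variance setting used the 5.32 prior degrees of freedom that all 3 pools gave. Both diets of a pool share each array, which makes the pool a block. FR and control deviations of pool 2 from pool 3 correlated across genes at 0.678. Between 37.2% and 62.1% of spots per array were above background for control and between 20.4% and 55.6% for FR, none was saturated, and the number of arrays limits precision. The script was tested on simulated data.

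All members were to be named. From each related list, genes past the test with a log2 ratio of at least 1 in size were named, at most 4, and at most 2 that did not pass, the brightest first. For the lowest member, the 5 nearest genes were named. The members and lists were chosen with earlier results of these data known. Alternatives covered background, normalization, filters, probe choice, replicates, slide, variance model, dye and the series table.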

Additional observations from a re-analysis of the deposited data

Results flagged for a closer look

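For Acadl, the long-chain acyl-CoA dehydrogenase, arrays with FR in Cy5 all read above 0 and arrays with FR in Cy3 all read below 0, so that the mean log2 ratios of the 2 dye orientations differed by 0.593. The difference between orientations was not tested. The probe was above background in FR on 1 of the 6 arrays and in control on 3. The same difference was 0.32 for Acadm, 0.19 for the tested probe of Cpt1a, 0.22 for Acaa2 and 0.02 for Hadhb, for which all arrays read below 0.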

How the results depend on the processing

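Of 7 tested members, 4 fell, and the count was 1 with both diets required above background (4 members tested; 21.9% of 4805 named genes fell), 1 with no replicate block (9.92% of 7907), 2 with gene-wise variance (17.6%), 3 with FR in Cy5 alone (31.1%) and 5 of 10 with no filter (15.2% of 16529). The pairing comes from FR and control of a pool sharing arrays. The members' median of -0.40 was -0.30 without background subtraction, -1.29 on processed signals and -1.29 from the series table, -0.62 with median centring, -0.18 with no filter, -0.039 with both diets above background, -0.28 with FR in Cy5 alone and -0.52 with FR in Cy3 alone. The median over all named genes moved too. In the same order it was -0.03, -0.11, -0.11, -0.23, 0.004, 0.038, -0.07 and -0.06. Leaving out pool 2 or pool 3 (pool 1 taking its place, which shares animals) left 4 lower, with a median of -0.42 each time. No member's direction reversed while called. Of named genes, 2223 fell and 256 rose. These were 3218 and 105 with median centring, 784 and 67 with no replicate block, 1390 and 99 with gene-wise variance, 3457 and 2195 with slide as a random block, 2795 and 583 with 3 pools, 2463 and 627 with FR in Cy5 alone, 3260 and 1059 without pool 3 and, of 4805, 1052 and 265 with both diets above background. The causes were not tested. Dim signal limits Slc25a20, Acadl, Decr1 and the FR side of Hadhb and Acadm.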

Other observations

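Pool 1 holds the animals of pools 2 and 3 together, and its ratio lay outside the range of those pools for 3 of the 7 tested members, as it did for 47.8% of named genes. The members were Hadha (0.24 in pool 1 against -0.06 and 0.02), Cpt2 (-0.27 against 0.00 and -0.05) and Acadm (-0.43 against -0.40 and -0.40). For Hadha and Cpt2 the repeat on another slide thus differed from both pools by more than those differed from each other.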
